A study of Mus musculus with 10 samples.

Results

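Adherens junctions join neighbouring cells through cadherins, whose tails bind catenins, and 9 genes of this apparatus were followed here. They were taken by symbol from the deposited expression tables. *Cdh1* (E-cadherin) and *Cdh2* (N-cadherin) encode the transmembrane adhesion receptors. *Ctnnb1* (β-catenin) and *Jup* (plakoglobin, or γ-catenin) encode the armadillo proteins that bind the cadherin tail, *Ctnnd1* (p120-catenin) the one that holds cadherin at the membrane, and *Ctnna1*, *Ctnna2* and *Ctnna3* (αE-, αN- and αT-catenin) the linkers to actin. *Ctnnal1* (α-catulin) encodes a relative of the α-catenins. All 9 genes were present in both tables, among 17816 genes at day 7 and 20007 in adult testis.

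In the seminiferous epithelium, Sertoli cells bind to each other at the blood-testis barrier and to developing germ cells through actin-rich junctions known as ectoplasmic specializations, in which N-cadherin is the best described classical cadherin. E-cadherin is typical of epithelia and, in the testis, is also used as a marker of undifferentiated spermatogonia. β-catenin has a further role outside the junction. It is normally broken down by a complex built on APC and Axin, and Wnt signals spare it so that it can act with TCF and LEF factors in the nucleus.

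RNA was sequenced after oligo(dT) enrichment from 2 kinds of mouse sample. Primary Sertoli cells were isolated from testes 7 days after birth, cultured and passaged, with 2 samples from *Rnf20* Flox/Flox mice, which the labels call WT, and 2 from *Amh-Rnf20*-/- mice, in which Cre driven by the *Amh* promoter removes a floxed segment of *Rnf20* in Sertoli cells. Whole adult testis gave 3 samples labelled WT and 3 labelled RNF20 conditional knockout, all untreated. *Rnf20* encodes an E3 ubiquitin ligase that acts on histone H2B. The age of 7 days comes from the sample titles and the study's methods, since the label on growth reads adult tissue for every sample, the day 7 cells included. Nothing in the labels ties the adult samples to separate animals, so p-values there measure the spread between these samples.

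Sample checks came first, because they bear on every comparison. *Rnf20* itself stood at 16.64 and 16.01 FPKM (a fragment count scaled by gene length and by the total of the library) in *Rnf20* Flox/Flox Sertoli cells and at 10.25 and 12.58 in *Amh-Rnf20*-/- cells. It was lower in both *Amh-Rnf20*-/- samples (log2 fold change -0.49, SE 0.12), with an adjusted p of 0.222 in edgeR's quasi-likelihood test. In adult testis, *Rnf20* stood at 4.89, 3.32 and 4.09 FPKM in the controls and at 9.16, 5.76 and 9.85 in the samples labelled knockout. The TMM-scaled log2 fold change was 0.12 (SE 0.27, adjusted p = 0.688 by edgeR), and on that scale knockout replicate 2 lay below all controls and the other 2 above them. Over the other scalings it ranged from -0.08 under median-ratio to 0.97 under total-count scaling (adjusted p = 0.0168). A lower level of the targeted gene was thus not detected there, and the adult groups are named only by their labels. One adult library stood apart from the others of its label. Knockout replicate 1 had 1.2 FPKM of *Sox9*, against 9.86 and 12.65 in replicates 2 and 3, and 32.84 FPKM of *Cldn11*, against 226.62 and 293.45. Its 12 spermatocyte markers summed to 8.26 FPKM, against 332.8 and 479.3. Sertoli cell markers were present at day 7, where the 17 of them summed to 1690 to 1848 FPKM in the controls, against 970.3 to 1374 in the *Amh-Rnf20*-/- cells. The 7 peritubular myoid cell markers summed to more than that in every day 7 sample, between 2376 and 2515 FPKM and between 4115 and 4291. Within the *Amh-Rnf20*-/- group, replicate 1 held less of the Sertoli markers (*Sox9* 10.19 and *Cldn11* 14.01 FPKM) than replicate 2 (25.66 and 150.35). In such bulk samples, fewer cells of a type and less RNA per cell cannot be told apart.

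The members sit on several chromosomes. On GRCm38.p6, RefSeq places *Cdh1* at chr8:106603350-106670247, *Ctnna2* at chr6:76881637-77979815, *Ctnna3* at chr10:63430098-65003667, *Ctnnb1* at chr9:120933400-120960507, *Jup* at chr11:100368856-100397839, *Ctnnd1* at chr2:84587096-84658977 and *Ctnnal1* at chr4:56810935-56865375. An exon of *Ctnnd1* and an exon of *Gm28635* share 1465 bases on the same strand, the most for any pair of their exons. Reads of *Ctnnd1* could thus have been split between these genes. RefSeq promoter entries were matched for 6 of the 9 genes. The bases before the outermost start in the promoter table are given for *Ctnna3*, *Ctnnb1* and *Jup*, since these 3 genes stood at similar levels in adult control testis and at very different levels in the samples labelled knockout. Each runs 5′ to 3′ on the gene's own strand, with capitals marking the GC box (GGGCGG or its reverse complement CCGCCC) and the CCAAT box (CCAAT or its reverse complement ATTGG), and no 2 matches overlap.
Ctnna3: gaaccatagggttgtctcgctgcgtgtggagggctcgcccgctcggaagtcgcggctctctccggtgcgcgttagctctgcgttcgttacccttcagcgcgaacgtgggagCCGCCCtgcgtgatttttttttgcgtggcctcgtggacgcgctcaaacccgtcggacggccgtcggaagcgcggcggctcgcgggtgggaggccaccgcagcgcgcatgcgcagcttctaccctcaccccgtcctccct
Ctnnb1: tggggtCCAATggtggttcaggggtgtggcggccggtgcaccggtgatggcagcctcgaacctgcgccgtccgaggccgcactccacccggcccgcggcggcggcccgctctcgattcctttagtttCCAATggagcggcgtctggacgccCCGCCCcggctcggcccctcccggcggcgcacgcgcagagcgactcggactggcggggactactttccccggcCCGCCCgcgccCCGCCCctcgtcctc
Jup: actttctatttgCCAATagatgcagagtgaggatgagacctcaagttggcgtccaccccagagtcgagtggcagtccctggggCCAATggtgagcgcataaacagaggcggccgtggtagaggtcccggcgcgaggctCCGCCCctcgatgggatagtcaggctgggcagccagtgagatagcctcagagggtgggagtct
The runs printed are chr10:63429848-63430097 on the plus strand, chr9:120933150-120933399 on the plus strand and chr11:100397840-100398040 on the minus strand. They are the whole 250-base windows for *Ctnna3* and *Ctnnb1*. The *Jup* window, chr11:100397791-100398040, lies before a start inside the gene, so its last 49 bases overlap the gene and are not shown. The *Ctnna3* window held 1 GC box and no CCAAT box, the *Ctnnb1* window 3 GC boxes and 2 CCAAT boxes, and the *Jup* window 2 of each, with 1 of its GC boxes in the bases not shown. None of these 3 windows held TATAAA or CTTTGAA, a form of the TCF/LEF site, on either strand. TATAAA was present in the windows of further entries of *Ctnnb1* (chr9:120933328-120933577) and *Ctnna3* (chr10:63820805-63821054). Those windows lie partly or wholly inside the gene. Of 32851 promoter windows of the same length in the table, 32.7% held a GC box, 33.8% a CCAAT box, 12.4% TATAAA and 4.46% CTTTGAA. The GC content was 67.6% for *Ctnna3*, 74.8% for *Ctnnb1* and 62.0% for *Jup*, against a median of 52.4% over all windows. These letters are descriptions of the windows and show no binding.

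**Figure D1:**
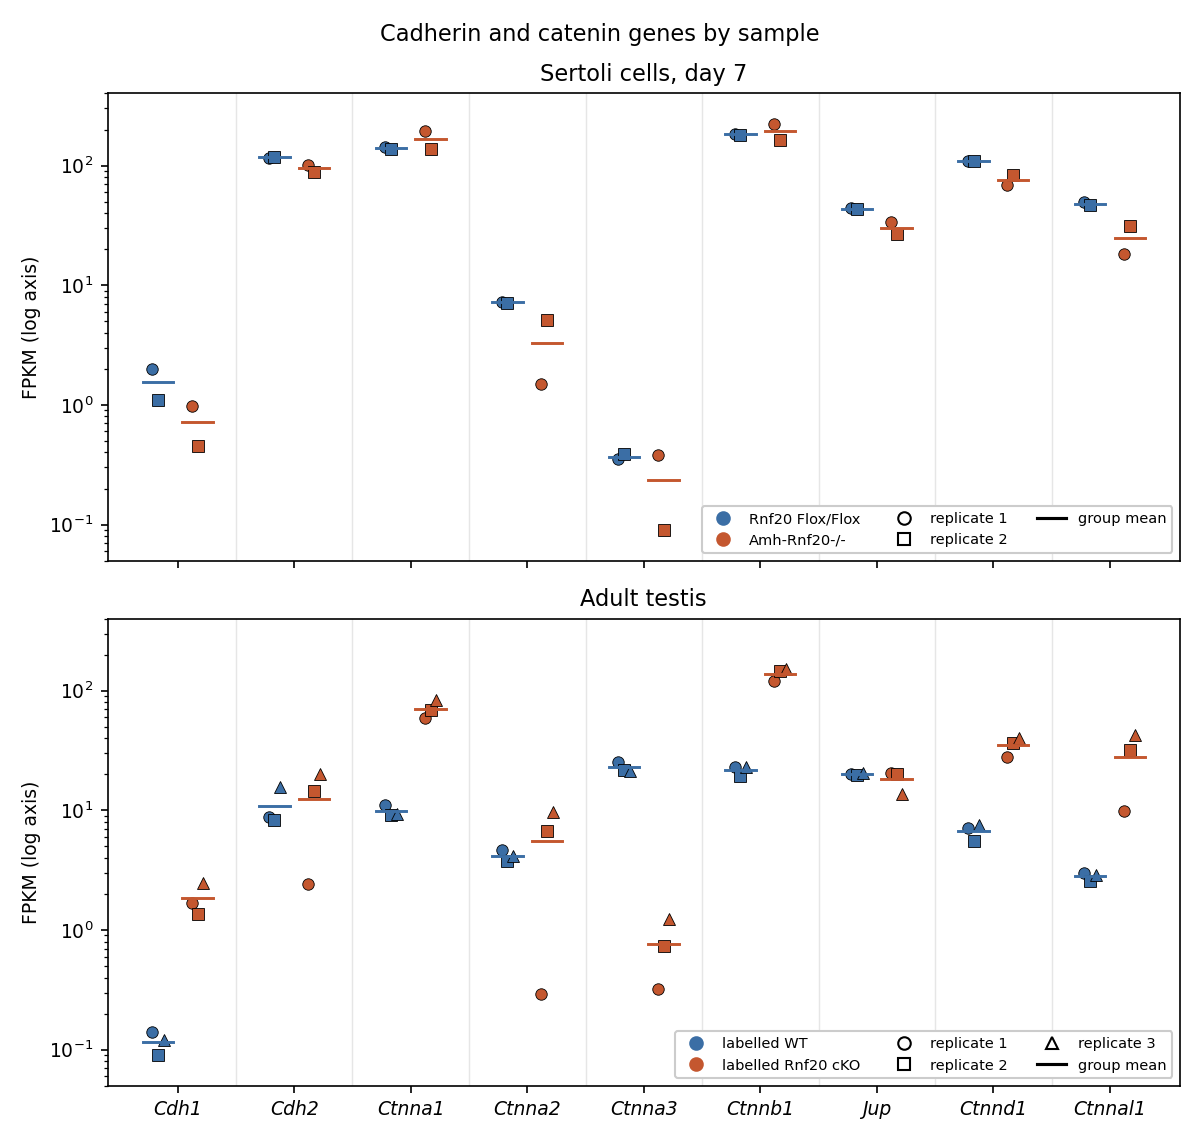
FPKM of each gene in every sample on a log axis, with day 7 Sertoli cells above and adult testis below; colours give the group, symbols the replicate and lines the group mean. In adult testis *Ctnna3* sits above 21 FPKM in every control and at or below 1.23 in every sample labelled knockout, while *Cdh1*, *Ctnna1*, *Ctnnb1*, *Ctnnd1* and *Ctnnal1* sit higher in all 3 of those samples.

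The levels of the 9 genes were ordered first, within each group, on FPKM. In *Rnf20* Flox/Flox Sertoli cells at day 7 the order from the highest mean was *Ctnnb1* (183.2), *Ctnna1* (140.1), *Cdh2* (117.1), *Ctnnd1* (109.1), *Ctnnal1* (48.0), *Jup* (43.7), *Ctnna2* (7.18), *Cdh1* (1.56) and *Ctnna3* (0.37), and no neighbours in that order overlapped between the 2 samples. The cultured cells therefore carried mostly N-cadherin, β-catenin, αE-catenin and p120-catenin transcripts. In *Amh-Rnf20*-/- cells the order was the same except that *Jup* stood above *Ctnnal1*, and the pairs *Ctnnb1* and *Ctnna1*, and *Jup* and *Ctnnal1*, overlapped. In adult control testis *Ctnna3* (22.8), *Ctnnb1* (21.8) and *Jup* (20.1) came first. The range of *Ctnnb1* overlapped those of *Ctnna3* and *Jup*, which did not overlap each other. *Cdh2* (10.95) and *Ctnna1* (9.82) followed, and these overlapped. Then came *Ctnnd1* (6.74), *Ctnna2* (4.19), *Ctnnal1* (2.82) and *Cdh1* (0.117), with no overlap. In the adult samples labelled knockout *Ctnnb1* (138.8) and *Ctnna1* (70.6) came first without overlap and *Ctnna3* (0.763) last, and the neighbours from *Ctnnd1* (35.0) down to *Cdh1* (1.83) overlapped one after another.

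The first comparison asked how the junction genes differed between cultured Sertoli cells of the 2 genotypes at day 7. Of the 9 genes, 8 passed the filter on low values, which asked for an FPKM of at least 0.5 in 2 samples; *Ctnna3* did not, and *Cdh1* passed only through the controls. In edgeR's quasi-likelihood test with Benjamini-Hochberg adjustment, 0 of the 8 passed an adjusted p of 0.05, as did 0% of the 12880 genes tested. At an unadjusted p under 0.05 there were 4 of the 8 (*Cdh2*, *Ctnnd1*, *Jup* and *Ctnnal1*), against 15.5% of all genes tested. DESeq2 called 2 of them, both lower (*Ctnnd1*, adjusted p = 0.0201, and *Ctnnal1*, adjusted p = 0.0124), against 4.5% of all genes, 1.49% lower, and limma called 0. On counts scaled by TMM (trimmed mean of M-values, which sets libraries level over most genes), 6 of the 8 were lower in both *Amh-Rnf20*-/- samples than in both controls and 0 were higher. Over all genes tested, groups did not overlap for 51%, with 26.1% lower and 24.8% higher.

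The cadherins were both lower in the *Amh-Rnf20*-/- cells without passing the test. *Cdh2* stood at 115.89 and 118.32 FPKM in the controls and at 101.41 and 88.97 in the *Amh-Rnf20*-/- cells. The groups did not overlap, and the log2 fold change was -0.26 (SE 0.10, adjusted p = 0.317 by edgeR). *Cdh1* was low throughout, at 2.01 and 1.10 FPKM in the controls and at 0.98 and 0.45 in the *Amh-Rnf20*-/- cells. These groups did not overlap either (log2 fold change -1.09, SE 0.50, adjusted p = 0.388 by edgeR), though the controls differed from each other by more than the lower control did from the nearer *Amh-Rnf20*-/- sample. *Cdh1* made up 1.70% and 0.921% of the summed *Cdh1* and *Cdh2* FPKM in the controls and 0.957% and 0.503% in *Amh-Rnf20*-/- cells, so this share overlapped. The 7 markers of rete and efferent duct epithelium were all tested, and 4 were lower in both *Amh-Rnf20*-/- samples and 0 higher in both, against 26.1% and 24.8% of all genes. Their sum was 63.68 to 94.94 FPKM in the controls and 36.4 to 82.0 in the *Amh-Rnf20*-/- cells, so it overlapped, and 1 of the 7, *Esrp1*, passed the filter only through the controls. *Epcam*, a gene of simple epithelia, stood at 7.65 and 7.45 FPKM against 3.77 and 4.41, whereas *Cldn4*, a claudin of the same list, stood at 37.28 and 26.97 against 46.41 and 10.96. Of the 13 spermatogonium markers tested, 9 were lower in both *Amh-Rnf20*-/- samples and 1 was higher in both, with 3 in the test only through the controls and 1 only through the *Amh-Rnf20*-/- cells. The 15 markers of that list summed to 205.3 to 214.5 FPKM in the controls and to 148.9 to 149.2 in the *Amh-Rnf20*-/- cells. All 6 spermatocyte markers tested were lower in both as well, 2 of them in the test only through the controls. The part of epithelial and germ cells in the *Cdh1* difference was not tested.

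None of the α-catenin genes passed the test at day 7. *Ctnna1* stood at 142.24 and 138.03 FPKM in the controls and at 195.99 and 137.00 in the *Amh-Rnf20*-/- cells. Replicate 1 lay above both controls and replicate 2 just below them (log2 fold change 0.29, SE 0.20, adjusted p = 0.554 by edgeR), and without replicate 1 the value was -0.03. *Ctnna2*, the αN-catenin gene best known from neurons, stood at 7.21 and 7.14 FPKM in the controls and at 1.49 and 5.09 in the *Amh-Rnf20*-/- cells. Both were below the controls, but they differed from each other more than the nearer one did from the controls, and the log2 fold change of -1.09 (SE 0.56) had an adjusted p of 0.423 by edgeR. The replicate with the lower *Ctnna2* was the one with the lower *Sox9* and *Cldn11*. *Ctnna3* was near the limit of detection, at 0.35 and 0.39 FPKM in the controls and at 0.38 and 0.09 in the *Amh-Rnf20*-/- cells, from 4 to 20 counts per sample, and was not tested. *Ctnna1* thus supplied 95.0% and 94.8% of α-catenin FPKM in the controls and 99.1% and 96.4% in the *Amh-Rnf20*-/- cells.

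β-catenin and plakoglobin differed in pattern at day 7. *Ctnnb1* stood at 184.76 and 181.55 FPKM in the controls and at 222.45 and 164.41 in the *Amh-Rnf20*-/- cells. The 2 *Amh-Rnf20*-/- samples lay on either side of the controls (log2 fold change 0.13, SE 0.17, adjusted p = 0.758 by edgeR), and without replicate 1 the value was -0.12. *Jup* stood at 44.25 and 43.16 FPKM in the controls and at 33.45 and 26.93 in the *Amh-Rnf20*-/- cells, with no overlap (log2 fold change -0.48, SE 0.13, adjusted p = 0.245 by edgeR). A ratio taken within a sample does not move with the scaling between samples, and on that measure the groups were tight. *Jup* made up 19.3% and 19.2% of the summed *Ctnnb1* and *Jup* FPKM in the controls and 13.1% and 14.1% in the *Amh-Rnf20*-/- cells. The difference of -5.69 percentage points was larger than the spread within either group (SD 0.0815 and 0.709, n = 2 each), and its exact two-sided permutation p of 0.333 is the smallest that 2 samples against 2 can give.

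p120-catenin and α-catulin were lower in both *Amh-Rnf20*-/- samples. *Ctnnd1* stood at 108.67 and 109.43 FPKM in the controls and at 68.37 and 84.17 in the *Amh-Rnf20*-/- cells. The groups did not overlap, and this gene had the lowest p-value of the 9 genes at day 7 (log2 fold change -0.51, SE 0.12, adjusted p = 0.206 by edgeR). *Ctnnal1* stood at 49.42 and 46.58 FPKM in the controls and at 18.33 and 31.13 in the *Amh-Rnf20*-/- cells, about a factor of 0.515 between the means. Its groups did not overlap (log2 fold change -0.92, SE 0.26, adjusted p = 0.248 by edgeR), with replicate 1 again the lower. With replicate 1 left out edgeR called 6 of the 8 genes, all lower, against 21.4% of all genes, 9.74% higher and 11.7% lower. With replicate 2 left out it called 7, of which *Ctnna1* and *Ctnnb1* were higher and 5 lower, against 39.9% of all genes, 21% higher and 18.8% lower. In those fits the lone *Amh-Rnf20*-/- sample is assumed to vary like the controls.

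Relative to the mean of the 17 Sertoli cell markers on the log2(FPKM + 0.1) scale, *Ctnna1* was 0.852 and *Ctnnb1* 0.688 higher in *Amh-Rnf20*-/- cells than in controls, while the differences of *Ctnna2* (-0.715), *Cdh1* (-0.42), *Ctnnal1* (-0.377) and *Ctnna3* (-0.011) were below 0 and that of *Cdh2* was 0.324. Single replicates moved most of these values. Without replicate 1 they were 0.173 for *Ctnna1*, 0.05 for *Ctnnb1*, -0.281 for *Ctnna2* and -0.417 for *Ctnnal1*, and without replicate 2 they were 1.53, 1.326, -1.148 and -0.337. *Cdh1* was -1.327 and 0.487, *Ctnna3* -1.099 and 1.078, and *Cdh2* -0.19 and 0.839, without replicate 1 and without replicate 2. With 2 samples against 2, an exact two-sided permutation p cannot fall below 0.333, so this test could call none of the 9 differences. Each adjusted value was 1. *Jup*, which was lower in FPKM, stood on this scale at 1.068 and 1.169 in the controls and at 1.78 and 0.628 in the *Amh-Rnf20*-/- cells. *Ctnnd1* stood at 2.362 and 2.51 in the controls and at 2.809 and 2.268 in the *Amh-Rnf20*-/- cells. For both genes the 2 *Amh-Rnf20*-/- samples lay on either side of the controls, and the mean differences were 0.085 and 0.103. With the marker median in place of the mean, the differences were 0.54 for *Jup*, 0.557 for *Ctnnd1*, 0.778 for *Cdh2* and -0.26 for *Ctnna2*. Those of *Ctnna1* and *Ctnnb1* were then 1.306 and 1.142. The Sertoli markers were lower in the same samples, with 10 of 16 tested markers below both controls and 2 above both, against 26.1% and 24.8% of all genes, while all 7 peritubular myoid and all 6 stromal fibroblast markers were above both controls. Among the 16, *Fshr* passed the filter only through the controls and *Rhox5* only through the *Amh-Rnf20*-/- cells. The part of these cell types in the day 7 differences was not tested.

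The second comparison set adult testes labelled knockout against those labelled WT. Of the 9 genes, 7 passed the test in edgeR, 5 higher and 2 lower in the samples labelled knockout, which is 77.8% of them. Over all 15919 genes tested 81.5% passed, 40.9% higher and 40.6% lower, so a count of this size is no result about the junction genes. At an unadjusted p under 0.05 the same number, 7 of 9, stood against 82.6% of all genes. On TMM-scaled counts, all labelled knockout samples lay above all controls for 5 of the 9 and below them for 2, against 42.4% and 43.1% of all genes, 85.5% together. The study's stricter thresholds, an absolute log2 fold change over 1 with an adjusted p under 0.001, were met by 5 of the 9 (*Cdh1*, *Ctnna1*, *Ctnnb1* and *Ctnnd1* higher, *Ctnna3* lower) and by 46.7% of all genes, 23% higher and 23.7% lower. That count rested on single libraries. It was 1 of the 9 without WT replicate 2 or 3, and 2 without WT replicate 1 or knockout replicate 2. It was 4 without knockout replicate 3, 7 without knockout replicate 1 and 0 with the replicate number as a block. In those fits, in that order, 2695, 2735, 3132, 3393, 4685, 10301 and 0 of all 15919 genes met the thresholds. The filter on low values asked here for 0.5 FPKM in 3 samples. *Cdh1* reached that level in no control and so passed only through the samples labelled knockout, while *Ctnna3* and *Ctnna2* reached it in 2 of those samples and passed only through the controls. Genes of this kind could be tested only because 1 group was high enough, so their count as called is no support for a direction. The same held for some genes of the lists given further on.

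**Figure D2:**
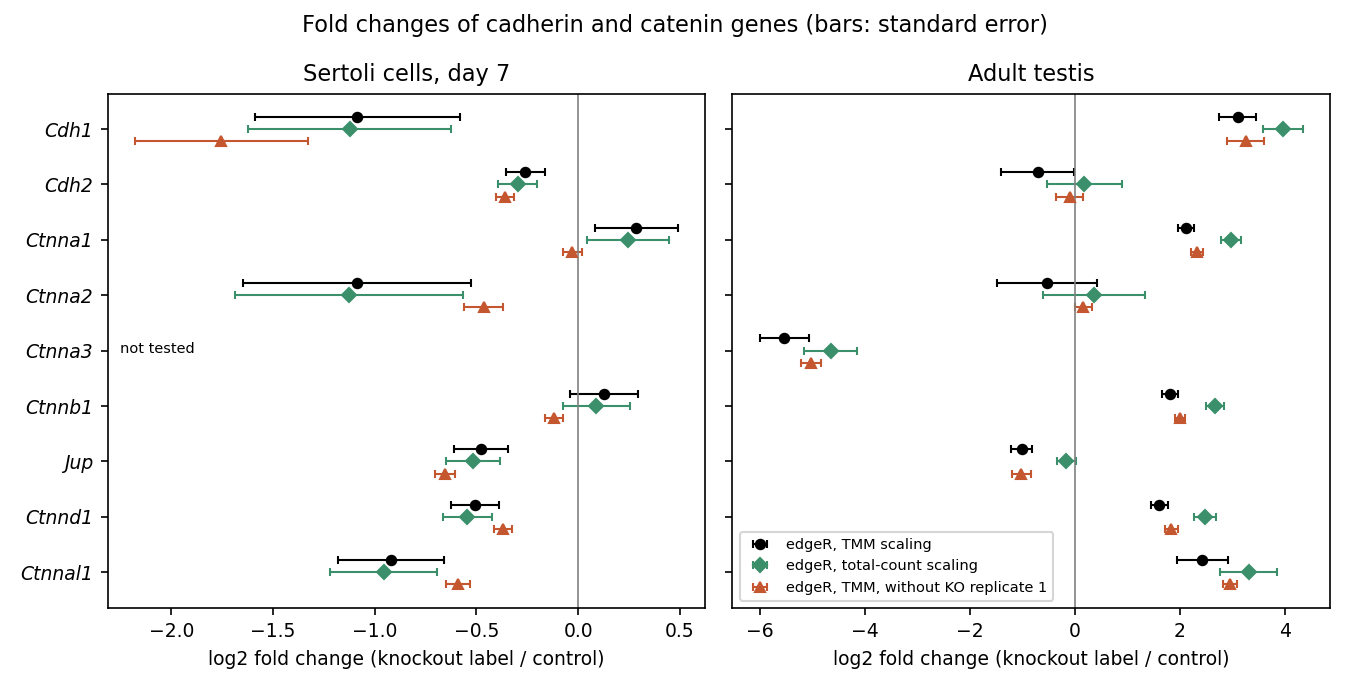
Log2 fold change of each gene with its standard error from edgeR, day 7 on the left and adult testis on the right, under TMM scaling, under total-count scaling and under TMM without the first knockout replicate of each table. In adult testis *Ctnna3* lies below 0 and *Cdh1*, *Ctnna1*, *Ctnnb1*, *Ctnnd1* and *Ctnnal1* above 0 in all 3 fits, whereas *Jup*, *Cdh2* and *Ctnna2* move towards or across 0 with the scaling or the replicate.

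Scaling mattered in adult testis, and its size is given once here. Library totals were between 15431912 and 16574144 counts, but TMM factors were lower in controls, at 0.71 to 0.761, than in samples labelled knockout, at 1.27 to 1.42. The median log2 fold change over all genes tested was 0.01 under TMM, -0.19 under median-ratio scaling, 0.58 under upper-quartile scaling and 0.87 under total-count scaling. Calls over all genes were 6503 higher and 6466 lower under TMM, and 8615 higher and 4775 lower under total-count scaling. Adult fold changes below are from TMM, and FPKM ratios follow library totals.

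αT-catenin and αE-catenin changed places in adult testis. *Ctnna3* stood at 25.18, 21.79 and 21.49 FPKM in the controls and at 0.32, 0.74 and 1.23 in the samples labelled knockout. Every one of the latter was far below every control, and the gene fell (log2 fold change -5.53, SE 0.47, adjusted p = 0.000113 by edgeR), with values between -5.75 and -3.79 over the other scalings, filters and tests. *Ctnna1* stood at 10.98, 9.20 and 9.28 FPKM in the controls and at 58.80, 68.92 and 84.12 in the samples labelled knockout. It rose by 2.11 on the log2 scale (SE 0.15, adjusted p = 6.33e-05 by edgeR), and the groups did not overlap. *Ctnna2* stood at 4.65, 3.79 and 4.13 FPKM in the controls and at 0.29, 6.73 and 9.71 in the samples labelled knockout. Replicate 1 was below all controls and replicates 2 and 3 above them, so the fold change (-0.53, SE 0.95, adjusted p = 0.623 by edgeR) described neither, and it was 0.16 without replicate 1 and 0.37 under total-count scaling.

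The composition of the α-catenins, a ratio within each library, showed the same without any scaling between samples. *Ctnna3* made up 61.7%, 62.7% and 61.6% of α-catenin FPKM in the controls, against 0.539%, 0.969% and 1.29% in the samples labelled knockout. *Ctnna1* made up 26.9%, 26.5% and 26.6% in the controls, against 99.0%, 90.2% and 88.5% in the samples labelled knockout. The controls were nearly identical (SD 0.588 and 0.232, n = 3), and the group means differed by -61.0 and 65.9 percentage points. Both shares had an exact two-sided permutation p of 0.1, the smallest that 3 samples against 3 can give. These 2 shares were chosen after the values were seen. The *Ctnna2* share was 11.4%, 10.9% and 11.8% in the controls, against 0.488%, 8.81% and 10.2% in the samples labelled knockout, where replicate 1 again stood apart. The difference of -4.87 percentage points was -1.86 without it.

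**Figure D3:**
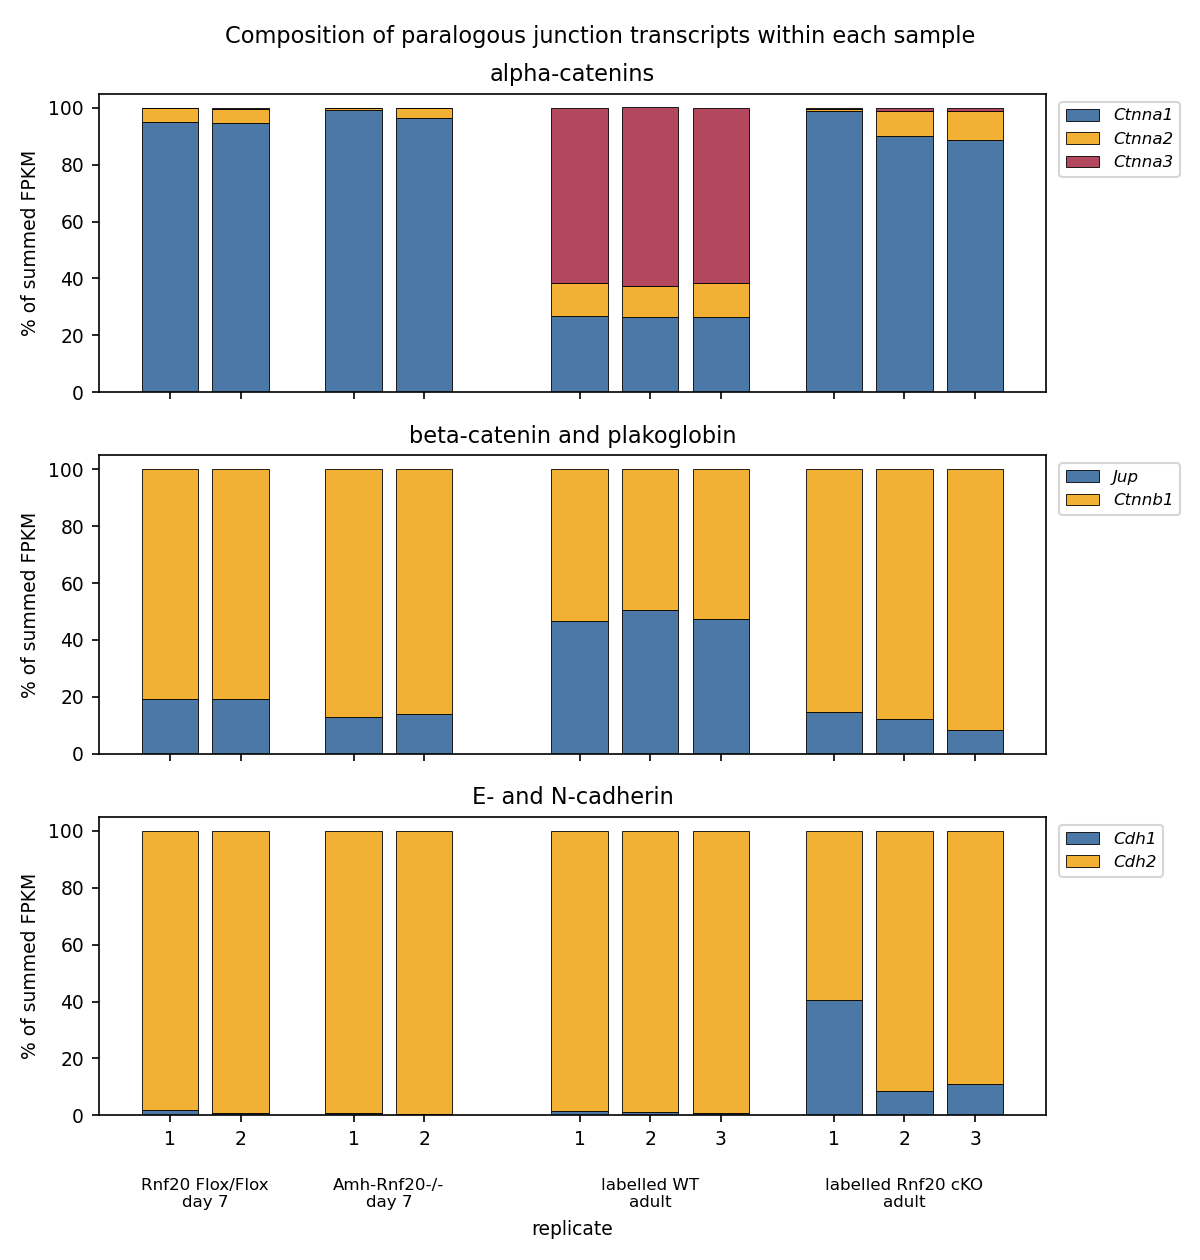
Stacked bars of the percent of summed FPKM in each sample for the α-catenin genes, for *Ctnnb1* with *Jup*, and for *Cdh1* with *Cdh2*; each bar is one sample, numbered by replicate. *Ctnna3* takes 61.6% to 62.7% of α-catenin FPKM in adult controls and no more than 1.29% in any other adult sample, and *Jup* takes 46.5% to 50.6% of its pair in adult controls.

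Spermatid and spermatocyte transcripts moved with these shares. The 12 spermatid markers summed to between 125100 and 193800 FPKM in adult controls and to between 4.45 and 102.7 in the samples labelled knockout, and all 12 fell, against 40.6% of all genes. Of these 12, 9 passed the filter on low values only through the controls. The 12 spermatocyte markers summed to between 5230 and 5458 FPKM and to between 8.26 and 479.3, and 8 of 12 passed, all lower, against the same 40.6%, with 8 of the 12 in the test only through the controls. The spermatogonium list did not move one way. Its 15 markers summed to between 244.9 and 269.1 FPKM in the controls, against 62.84, 304.7 and 422.3 in replicates 1, 2 and 3 of the samples labelled knockout, and of 11 tested 3 rose and 5 fell, against 40.9% and 40.6% of all genes. Of these 11, 3 passed the filter only through the controls and 1 only through the samples labelled knockout. In day 7 Sertoli cells, where the spermatid markers summed to between 0.83 and 2.06 FPKM, *Ctnna3* was at 0.39 FPKM or less. The Sertoli cell markers, in contrast, summed to between 669.7 and 865.4 FPKM in adult controls and to between 3348 and 6407 in the samples labelled knockout, where the Leydig cell, fibroblast and macrophage lists were also above every control. The part of these cell types in the differences of the junction genes was not tested.

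β-catenin and plakoglobin parted in adult testis as well. *Ctnnb1* stood at 23.00, 19.41 and 22.88 FPKM in the controls and at 121.02, 144.56 and 150.76 in the samples labelled knockout. It rose by 1.81 on the log2 scale (SE 0.15, adjusted p = 9.54e-05 by edgeR), and its FPKM means differed by a factor of 6.38. *Jup* stood at 20.00, 19.86 and 20.54 FPKM in the controls and at 20.68, 19.92 and 13.69 in the samples labelled knockout. On FPKM the groups overlapped and only replicate 3 was low. Under TMM the *Jup* difference passed the test (log2 fold change -1.02, SE 0.21, adjusted p = 0.00411 by edgeR), whereas under total-count scaling it was -0.17 (adjusted p = 0.407), against a median of 0.87 over all genes in that fit. The share within the pair did not depend on this choice. *Jup* made up 46.5%, 50.6% and 47.3% of the pair in the controls, against 14.6%, 12.1% and 8.32% in the samples labelled knockout, a difference of -36.5 percentage points (exact two-sided permutation p = 0.1, the smallest possible).

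The cadherins also differed from each other. *Cdh1* stood at 0.14, 0.09 and 0.12 FPKM in the adult controls, from 6 to 10 counts per sample, and at 1.67, 1.35 and 2.48 in the samples labelled knockout, from 91 to 160 counts. No sample overlapped, and the gene rose by 3.10 on the log2 scale (SE 0.35, adjusted p = 0.000321 by edgeR). *Cdh2* stood at 8.78, 8.28 and 15.80 FPKM in the controls and at 2.43, 14.62 and 20.17 in the samples labelled knockout. The groups overlapped, with replicate 1 below all controls and replicate 3 above them, and no difference passed the test (log2 fold change -0.71, SE 0.69, adjusted p = 0.37 by edgeR). That value was -0.10 without replicate 1 and 0.18 under total-count scaling. *Cdh1* made up 1.57%, 1.08% and 0.754% of the pair in the controls, against 40.7%, 8.45% and 10.9% in the samples labelled knockout (exact two-sided permutation p = 0.1). The means differed by 18.9 percentage points, and by 8.57 without replicate 1. The high share of replicate 1 went with its low *Cdh2*, while its *Cdh1* lay between those of replicates 2 and 3. *Cdh2* remained the more abundant cadherin transcript in all 10 samples. Of the 7 markers of rete and efferent duct epithelium, 4 of 6 tested rose, against 40.9% of all genes. Those 4 passed the filter on low values only through the samples labelled knockout, so their count is no support for a direction. *Pax8* among them was listed at 0.00, 0.03 and 0.00 FPKM in the controls and at 4.54, 1.42 and 1.57 in the samples labelled knockout. *Epcam* was at 6.97, 54.53 and 105.48 FPKM there, against 16.78 to 18.75 in controls, and the part of such cells in the *Cdh1* difference was not tested.

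p120-catenin and α-catulin were higher in all 3 adult samples labelled knockout. *Ctnnd1* stood at 7.15, 5.54 and 7.54 FPKM in the controls and at 27.78, 36.74 and 40.56 in the samples labelled knockout. It rose by 1.61 on the log2 scale (SE 0.16, adjusted p = 0.000211 by edgeR). *Ctnnal1* stood at 3.02, 2.58 and 2.87 FPKM in the controls and at 9.92, 31.78 and 42.33 in the samples labelled knockout. It rose as well (log2 fold change 2.42, SE 0.49, adjusted p = 0.00386 by edgeR), and replicate 1 was the lowest of the 3 on FPKM. Replicate 1 was also the lowest for *Cdh2*, *Ctnna1*, *Ctnna2*, *Ctnna3*, *Ctnnb1*, *Ctnnd1* and *Sox9*, but not for *Cdh1* or *Jup*.

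Set against the 17 Sertoli cell markers, the genes that were higher in adult samples labelled knockout differed less. On log2(FPKM + 0.1) relative to the marker mean, *Ctnnd1* was 0.211 higher in the samples labelled knockout (exact two-sided permutation p = 0.7) and *Ctnnb1* 0.522 higher (exact p = 0.2). *Ctnna1* was 0.679, *Ctnnal1* 0.887 and *Cdh1* 0.979 higher on this scale, each with an exact p of 0.1, the smallest possible, and an adjusted value of 0.129 over the 9 genes. Without replicate 1 of the samples labelled knockout, the differences were 0.335 for *Ctnna1*, 0.553 for *Cdh1*, 0.149 for *Ctnnb1*, -0.1 for *Ctnnd1* and 1.044 for *Ctnnal1*. The *Cdh1* value depended on the pseudocount and was -0.656 with a pseudocount of 1. *Ctnna3* (-7.02), *Ctnna2* (-2.67), *Cdh2* (-2.36) and *Jup* (-2.32) were lower relative to the markers, also with an exact p of 0.1 each. Without replicate 1 they were -7.047, -1.675, -1.904 and -2.896, in that order.

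**Figure D4:**
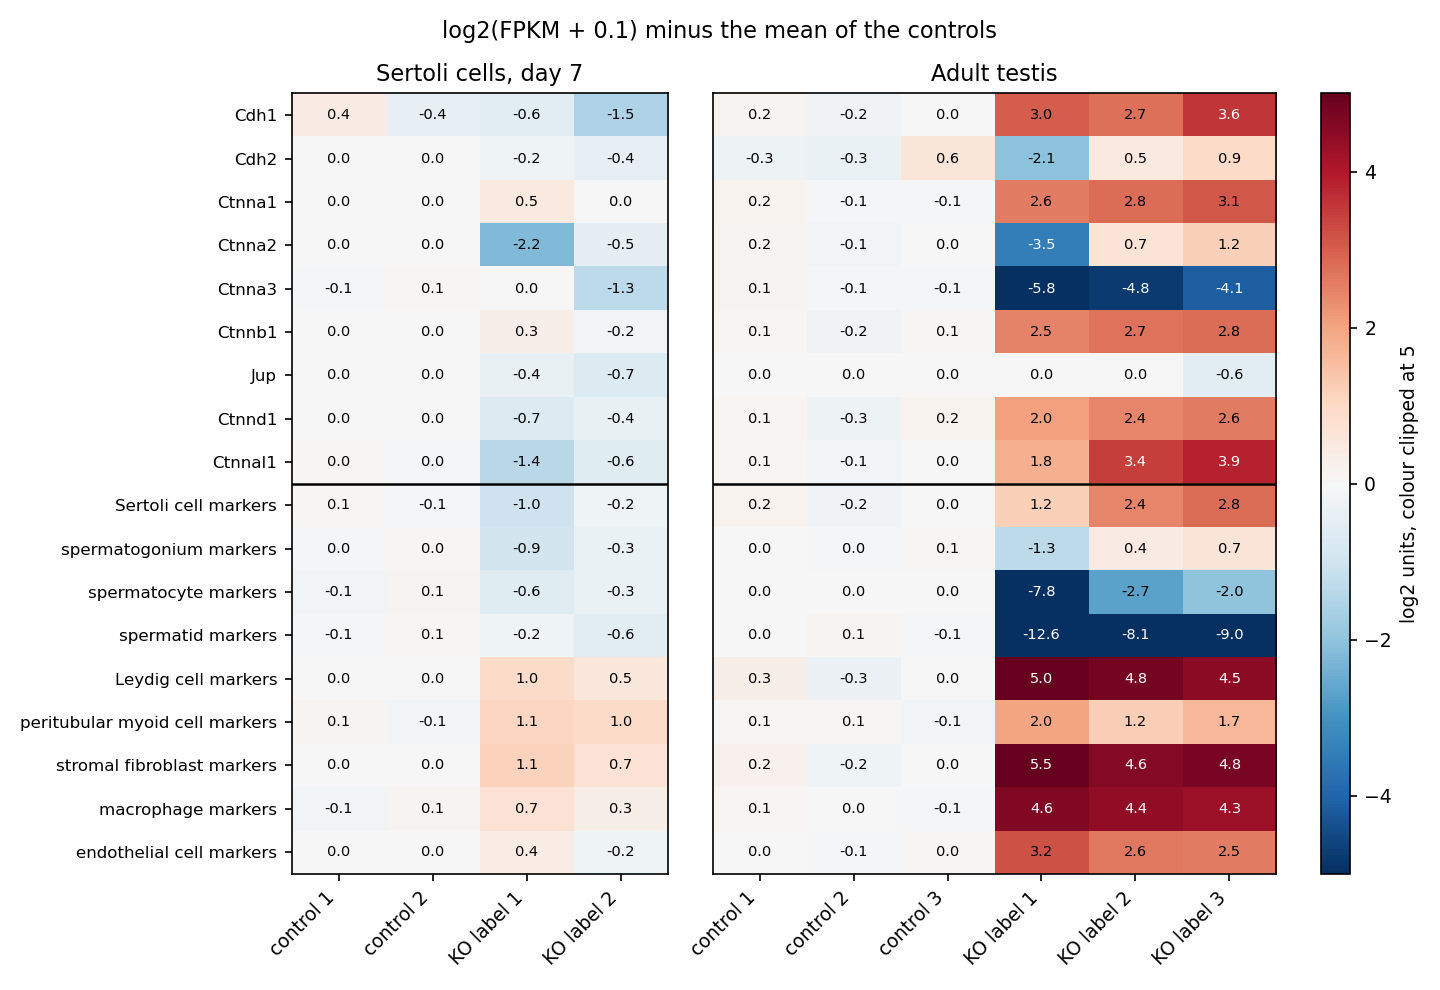
Heat map of log2(FPKM + 0.1) minus the control mean for each gene and, under the line, for the mean of each cell type's marker list, with one column per sample and colours clipped at 5. In adult testis *Ctnna3* is lower in the columns where spermatocyte and spermatid markers are lower, and *Cdh2* and *Ctnna2* are low in knockout replicate 1, where the spermatogonium and spermatocyte markers are lowest.

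For *Cdh1*, *Cdh2* and *Ctnna2*, the genes most alike in pattern were sought over all 10 samples among 12378 genes, by the root mean square distance between profiles of log2(FPKM + 0.1) centred within each table. For *Ctnna2* these were *Dmrt1* (distance 0.283), *Mro* (0.306) and *Slc47a2* (0.314). All genes named here were chosen for a like pattern in these samples, so their likeness to the member was fixed by the choice. *Dmrt1*, which encodes a transcription factor of Sertoli cells and spermatogonia, stood at 31.74 and 32.01 FPKM in day 7 controls and at 8.12 and 27.16 in *Amh-Rnf20*-/- cells. In adult testis *Dmrt1* stood at 6.62, 6.18 and 6.07 FPKM in controls and at 0.57, 17.27 and 24.91 in samples labelled knockout, so replicate 1 of each table was the low one, as for *Ctnna2*. For *Cdh2* the nearest genes were *Gm44* (distance 0.185), *Tmeff1* (0.195) and *Zswim6* (0.221). *Tmeff1* was likewise low only in adult knockout replicate 1, at 3.56 FPKM against 14.54 to 24.59 in the other adult samples. For *Cdh1* they were *Bpifa2* (distance 0.283), *Prrg1* (0.317) and *H2-T10* (0.329), each higher in all 3 adult samples labelled knockout than in the controls.

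The proteins around the junction were examined as a list of 28 genes. At day 7 none of the 28 passed the test in edgeR, the median log2 fold change was 0.003 against -0.004 over all genes, and the lowest p-value belonged to *Lima1*, which encodes a protein linking α-catenin to actin (37.89 and 34.94 FPKM in controls, 55.42 and 44.84 in *Amh-Rnf20*-/- cells, log2 fold change 0.53, adjusted p = 0.239 by edgeR). In adult testis 13 rose and 6 fell in the samples labelled knockout, with a median of 0.838 against 0.011 over all genes, of which 40.9% were called higher and 40.6% lower. *Dlg5* passed the filter only through the samples labelled knockout, and *Ctnnd2* only through the controls. Under total-count scaling the counts were 21 and 5, against 54.1% and 30% of all genes and a median of 0.87 over all genes. *Lima1* had the largest rise, from 2.91, 2.16 and 2.26 FPKM in the controls to 18.38, 25.75 and 31.19 (log2 fold change 2.45, adjusted p = 0.000135 by edgeR). *Nectin3*, an adhesion receptor known from the spermatid side of the Sertoli-spermatid junction, had the largest fall, from 176.07, 155.14 and 181.23 FPKM to 6.32, 13.96 and 12.42 (log2 fold change -4.69, adjusted p = 5.67e-05 by edgeR). *Nectin3* fell under all 4 scalings.

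The complex that breaks down β-catenin was next. Of 11 genes tested at day 7 none passed in edgeR, and *Axin2*, which is both a part of the complex and a widely used Wnt target, stood at 7.12 and 6.74 FPKM in controls and at 12.48 and 7.81 in *Amh-Rnf20*-/- cells (log2 fold change 0.60, adjusted p = 0.341). In adult testis 6 rose and 4 fell of 11. Of these 11, *Axin2* and *Amer1* passed the filter only through the samples labelled knockout. *Axin2* had the largest rise, from 0.22, 0.29 and 0.37 FPKM in the controls to 4.80, 3.35 and 3.95 (log2 fold change 2.94, adjusted p = 0.000222 by edgeR). *Tnks*, which encodes a tankyrase that marks Axin for breakdown, had the largest fall, from 15.58, 20.92 and 26.51 FPKM to 2.95, 5.77 and 6.80 (log2 fold change -2.90, adjusted p = 0.000427 by edgeR). The median of the list was 0.431 against 0.011 over all genes, and shares of 40.9% higher and 40.6% lower were called over all genes. Under total-count scaling 7 rose and 4 fell, against 54.1% and 30% of all genes.

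Nuclear partners and targets of β-catenin were examined in the same way. At day 7 none of 11 partners and none of 11 targets passed in edgeR. The lowest p-values belonged to *Tle4*, a co-repressor gene (7.32 and 7.23 FPKM against 4.72 and 5.25, log2 fold change -0.52, adjusted p = 0.177), and to *Apcdd1*, which encodes a Wnt inhibitor (1.88 and 2.16 FPKM against 7.22 and 6.12, log2 fold change 1.76, adjusted p = 0.119 by edgeR). In adult testis 9 of 12 partners rose and 2 fell, with a median of 1.64, and 6 of 11 targets rose and 3 fell, with a median of 0.944. Over all genes the median was 0.011, with 40.9% called higher and 40.6% lower. Under total-count scaling, where the median of all genes was 0.87, the counts were 10 higher and 2 lower for partners and 7 and 3 for targets. That fit called 54.1% of all genes higher and 30% lower. *Tle2*, another co-repressor gene, had the largest rise among partners, from 0.88, 1.08 and 0.79 FPKM to 24.65, 17.97 and 19.83 (log2 fold change 3.62, adjusted p = 5.13e-05 by edgeR). *Lef1* had the largest fall, from 19.02, 18.73 and 17.46 FPKM to 0.56, 1.99 and 2.16 (log2 fold change -4.47, adjusted p = 0.000445 by edgeR), and at day 7 it was at 0.26 FPKM or less in every sample and was not tested. The partners *Tcf7l1* and *Pygo1* and the targets *Axin2* and *Myc* passed the filter only through the samples labelled knockout, and the target *Lgr5* only through the controls. Among targets *Myc* had the largest rise, from 0.17, 0.09 and 0.14 FPKM to 8.49, 4.90 and 4.56, and *Lgr5* the largest fall, from 2.37, 2.93 and 2.78 FPKM to 0.04, 0.11 and 0.04. Each of these 2 targets could be tested only because 1 group was high enough, so neither is support for a direction.

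The 6 genes of transcription factors known to repress *Cdh1* were given beside it. At day 7 none passed in edgeR, 4 of 6 were higher in both *Amh-Rnf20*-/- samples than in both controls against 24.8% of all genes, and the median was 0.408. *Twist1* had the lowest p-value (18.60 and 17.87 FPKM in controls, 29.26 and 24.03 in *Amh-Rnf20*-/- cells, log2 fold change 0.59, adjusted p = 0.207 by edgeR). In adult testis 5 of 6 rose and 1 fell under TMM, against 40.9% and 40.6% of all genes, with a median of 2.34 against 0.011. Under total-count scaling 5 rose and 0 fell, against 54.1% and 30% of all genes. Of the 5, *Zeb2*, *Twist1* and *Twist2* passed the filter on low values only through the samples labelled knockout. *Twist1* had the largest rise, from 0.53, 0.36 and 0.27 FPKM in the controls to 23.74, 20.29 and 14.96 (log2 fold change 4.82, adjusted p = 7.14e-05 by edgeR). *Snai2* was the one that fell under TMM (log2 fold change -0.56, adjusted p = 0.045 by edgeR), but it was 0.29 under total-count scaling (adjusted p = 0.225). The 6 fibroblast markers, a cell type in which several of these repressors are expressed, summed to between 40.5 and 53.37 FPKM across controls, against 1303 to 3390 in samples labelled knockout, and their part was not tested.

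**Figure D5:**
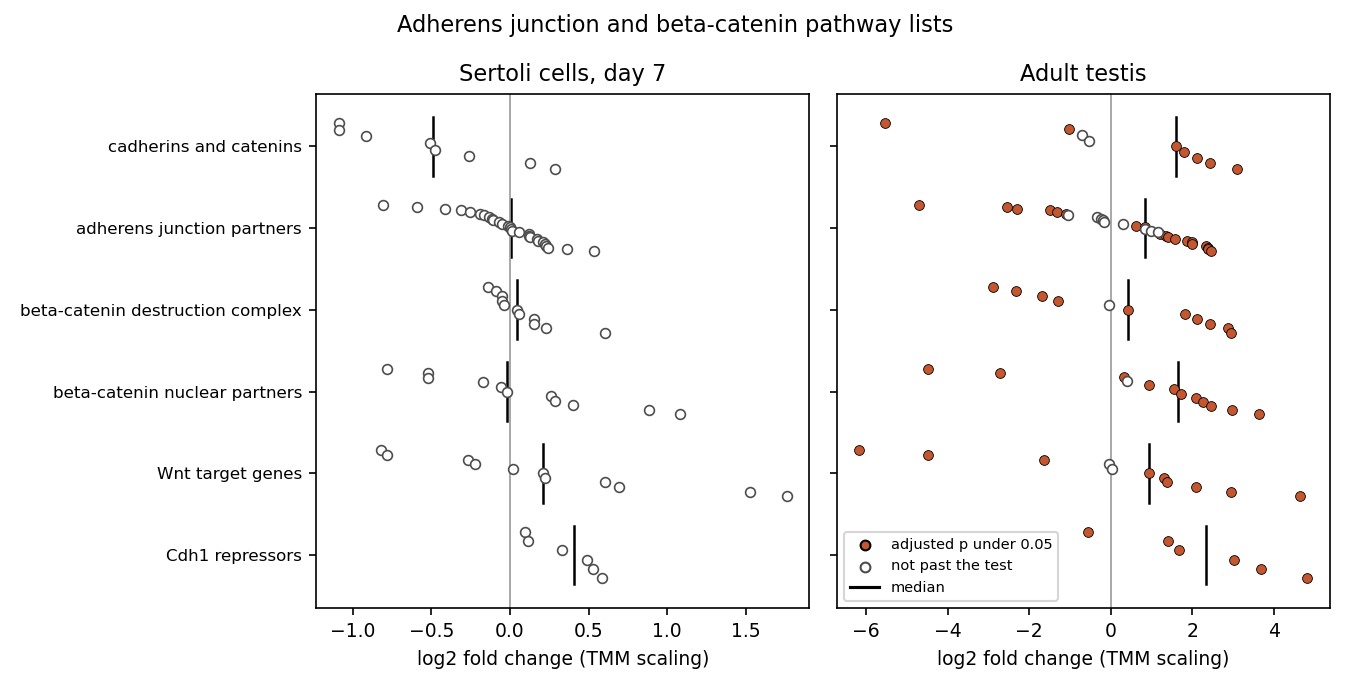
Log2 fold change under TMM scaling of every tested gene in each pathway list, day 7 on the left and adult testis on the right; filled points passed an adjusted p of 0.05, open points did not, and black lines are list medians. No point is filled at day 7, and in adult testis every list holds genes on both sides of 0, the *Cdh1* repressors only through *Snai2*, which lay at 0.29 under total-count scaling.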

How the data were processed

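Reads were mapped by the authors to GRCm38.p6 with HISAT and to reference genes with Bowtie2, and quantified with RSEM. Tool versions, and whether strand was used, are not given in the sources used here. The tables deposited by the authors hold, per sample, estimated counts (not normalized), FPKM (counts per gene length and library total) and TPM. Between 10.7% and 13.2% of the counts of an adult sample, and 11.1% to 11.6% at day 7, were not whole, and all counts were rounded. The adult table has 20 empty columns, which were not used, and its experiment is not described in the paper's text.

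The tables were fitted separately with edgeR 4.0.16 (glmQLFit, TMM, Benjamini-Hochberg over all genes tested), for genes that reached 0.5 FPKM in a number of samples equal to the smaller group, 12880 at day 7 and 15919 in adult testis. Totals were 17477268 to 17705347 counts at day 7. Scripts were tested on simulated data. Standard errors were the log2 fold change over the root of the test statistic. Within-sample shares and marker-relative values used exact two-sided permutation tests and log2(FPKM + 0.1) where logs were needed. DESeq2 1.42.0 and limma 3.58.1 were alternatives, with other scalings, filters, units, thresholds, the replicate block and each sample left out.

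The members, lists and rules were chosen with earlier results of these data known. Named genes were the 9 members, *Rnf20*, *Axin2*, *Lef1*, the largest rise and fall past the test in each pathway list, or the gene with the smallest p-value where none passed, and the 3 nearest profiles of *Cdh1*, *Cdh2* and *Ctnna2*. Marker genes were named after their values were seen. The methods name 3 individuals for each day 7 group, of which 2 samples were analysed here.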

Additional observations from a re-analysis of the deposited data

Results flagged for a closer look

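*Cdh1*, *Ctnnd1* and *Ctnnal1* were flagged because every knockout sample lay below the controls at day 7 and every sample labelled knockout lay above them in adult testis. The log2 fold changes were -1.09 and 3.10 for *Cdh1*, -0.51 and 1.61 for *Ctnnd1*, and -0.92 and 2.42 for *Ctnnal1*, day 7 first. Of the 12378 genes tested in both tables, 11.6% had this pattern. *Cdh1* passed the filter on low values only through the controls at day 7 and only through the samples labelled knockout in adult testis. None of the 3 day 7 values passed edgeR's adjusted test, and the difference between the ages was not tested, since cultured Sertoli cells and whole testis were in tables normalized separately.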

How the results depend on the processing

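With 2 samples per group at day 7 the result depended on single libraries. None of the genes was called by edgeR under any of the 4 scalings, either other filter, limma or the replicate block, DESeq2 called 2, and leaving out one sample gave between 0 and 7 (6 without *Amh-Rnf20*-/- replicate 1, 7 without replicate 2). Over all genes DESeq2 called 579 at day 7, of which 126 met the study's thresholds, and leaving out a sample gave 0 to 5136 calls (2757 without replicate 1, 5136 without replicate 2) and 0 to 650 past the study's thresholds, against 0.

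In adult testis the count of 7 became 6 under total-count and upper-quartile scaling, with both limma fits (all by the loss of *Jup*), and when the mean FPKM had to be at least 1, which left out *Cdh1*. *Jup* was -0.17 (adjusted p = 0.407), -0.44 (0.0921), -0.18 (0.398) and -0.17 (0.397) in those 4 fits. Reversed in direction were *Cdh2* (0.18 under total-count scaling) and *Ctnna2* (0.37 under total-count and 0.0379 under upper-quartile scaling, and -0.9941 to 0.1617 over samples left out). The study's thresholds were met by 7432 of all adult genes, by 2695 to 10301 with a sample left out, and by 5 of the 9 genes, 7 with DESeq2 and 1 to 7 with a sample left out (1 without WT replicate 2 or 3, 7 without knockout replicate 1). Each of the 6 fits with an adult sample left out called 7 of the 9 genes, and 12018 to 13757 of all 15919. The fits that called 6 of the 9 genes called 11955 to 13507 of all genes.

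Samples with the same number in both groups had correlations of their deviations of 0.032 at day 7 and of 0.006 to 0.027 in adult testis. These values gave no sign of pairing by number but cannot exclude it. With 2 samples per group, the day 7 correlations are a single value with either sign (0.032 and -0.032). With the replicate number as a block 0 and 7 members, and 0 and 12209 of all genes, were called at day 7 and in adult testis. In that adult fit 0 of all genes met the study's thresholds.

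At day 7, with a sample left out, the fold change ranged over -0.0281 to 0.5427 for *Ctnna1*, -0.1183 to 0.3374 for *Ctnnb1*, -2.2147 to -0.4648 for *Ctnna2*, -1.7545 to -0.5757 for *Cdh1*, -1.344 to -0.5905 for *Ctnnal1*, -0.3614 to -0.1644 for *Cdh2*, -0.6551 to -0.3188 for *Jup* and -0.6585 to -0.3686 for *Ctnnd1*. Relative to the Sertoli markers, day 7 differences turned for *Cdh1* (0.024 with a pseudocount of 1, 0.034 with the marker median, -1.327 to 0.487 with a sample left out), *Ctnna3* (0.434 and 0.443, -1.099 to 1.078) and *Ctnnal1* (0.077 with the median). With a sample left out they ranged over -0.19 to 0.839 for *Cdh2*, -0.167 to 0.373 for *Ctnnd1* and -0.49 to 0.661 for *Jup*, and in adult testis over -0.1 to 0.416 for *Ctnnd1*. Adult *Cdh1* was -0.656 with a pseudocount of 1. The causes were not tested. No share reversed under TPM, counts or any sample left out.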
